A study of Mus musculus with 56 samples.

Results

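Solute carriers are membrane proteins that move amino acids, sugars, ions, metals, vitamins and metabolites across the plasma membrane and the membranes of organelles. Dividing pluripotent cells are known for a high demand for amino acids, for release of lactate from glycolysis and for nucleoside and folate supply, while fibroblasts use carriers of the secretory pathway to modify the matrix they export. The genes described here are the 216 solute carrier genes among the 13451 genes of a table of sorted reprogramming cells. They were chosen by name and level: a symbol of Slc followed by a digit, without the glucose carriers Slc2a1 and Slc2a3, and a mean score of at least 100 in any of 22 sample groups. The table held 228 symbols of Slc and a digit, those 2 included, and 10 others stayed under that level. Slc25a53, at 99.0 in its highest group, and Slc12a8, at 95.5, lay just outside, and Slc22a15, at 104, and Slc45a3, at 106, just inside. In 4 members the name does not mean a carrier: Slc9a3r1 and Slc9a3r2 are scaffold proteins that bind exchangers, and Slc4a1ap and Slc7a6os are named for a partner or a neighbour. By substrate, 38 members carry amino acids or peptides, 15 sugars, 8 carboxylates such as lactate, 29 ions and 27 metals. A further 34 are mitochondrial carriers, 23 belong to the nucleotide sugar carriers and their relatives, 15 carry vitamins or nucleosides and 17 lipids, choline or organic ions, which leaves 10 others.

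The study followed mouse embryonic fibroblasts with an Oct4-GFP reporter (OG2-MEF) that received a doxycycline-inducible polycistronic lentivirus for Oct4, Sox2, Klf4 and Myc (OSKM) with rtTA, in medium with vitamin C. Every one of these cells also carried an shRNA, either against luciferase (shLuci, the control) or against the insulator protein CTCF (shCTCF). RNA was sequenced at day 0 (D0), from cells sorted on days 3, 6 and 9 as Thy1+, SSEA1+ or negative for both (DN), and from GFP+ cells on day 12. Thy1 is a fibroblast surface protein, SSEA1 a surface glycan gained on the way to pluripotency, and Oct4-GFP marks cells that have reached it. These are 11 populations with 2 libraries for each shRNA, and the labels do not say whether the 2 came from separate cultures, so p-values measure only the spread between these libraries, which may be technical. Further groups, for which the labels name no sort, were day 10 cells with retroviral OSKM and a control vector, CTCF overexpression (oeCTCF) or oeCTCF combined with an shRNA to Smarca5, an ATPase that moves nucleosomes, day 10 cells with control or Ctcf shRNA, and 1 MEF and 1 iPSC library.

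Levels are given as the authors' scores, rounded values that have nearly the same distribution in every library of a table, so depth is unknown, and scores of different genes are not compared because they are not per length. Fold changes are on the scale of log2(score + 1) from limma, with a gene called at an adjusted p below 0.05 over all genes. The targeted gene matched the labels: Ctcf had scores of 790 and 830 at D0 with control shRNA against 520 and 616 with Ctcf shRNA, and 2381 and 2441 against 698 and 674 in day 12 GFP+ cells. In bulk RNA, fewer cells with a transcript and less transcript per cell cannot be told apart. The summed score of 8 fibroblast markers ran from 84853 to 91077 at D0 and from 12984 to 13873 in day 12 GFP+ cells with control shRNA, and that of 8 pluripotency markers from 8.0 to 9.0 and from 38924 to 39616. A member had to reach a score of 100 in some group, so members that are high in 1 group only were bound to differ. Counts of called members stand beside the share of all genes, except where said otherwise and in recounts under other settings.

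Promoter windows are printed first for 6 members on which results below turn: the lactate exporter Slc16a3, the nucleoside carrier Slc29a1, the choline transporter-like gene Slc44a2, the nucleotide sugar carrier relative Slc35e4 and the amino acid carriers Slc7a1 and Slc7a11. Each shows the 250 bases before a RefSeq gene start (GRCm38.p6), 5′ to 3′ on the strand of the gene. Capitals mark matches, on either strand, to a core of the CTCF motif, made of CCA, AG and GGC with any 2 bases between one and the next, and in Slc7a11 to TGATGNAA, the core of the element through which ATF4 acts in amino acid shortage.
Slc16a3 (chr11:120948817-120949066, plus strand): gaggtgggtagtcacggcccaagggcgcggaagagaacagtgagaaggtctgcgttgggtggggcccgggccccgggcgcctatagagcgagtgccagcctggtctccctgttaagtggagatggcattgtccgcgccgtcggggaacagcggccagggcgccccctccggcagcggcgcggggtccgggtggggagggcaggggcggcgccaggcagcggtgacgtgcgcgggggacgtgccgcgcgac
Slc29a1 (chr17:45597152-45597401, minus strand): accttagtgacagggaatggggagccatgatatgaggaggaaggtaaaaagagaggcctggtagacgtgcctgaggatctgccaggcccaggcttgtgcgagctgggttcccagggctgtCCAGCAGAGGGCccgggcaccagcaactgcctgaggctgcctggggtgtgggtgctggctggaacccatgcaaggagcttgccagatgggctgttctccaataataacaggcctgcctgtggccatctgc
Slc44a2 (chr9:21320469-21320718, plus strand): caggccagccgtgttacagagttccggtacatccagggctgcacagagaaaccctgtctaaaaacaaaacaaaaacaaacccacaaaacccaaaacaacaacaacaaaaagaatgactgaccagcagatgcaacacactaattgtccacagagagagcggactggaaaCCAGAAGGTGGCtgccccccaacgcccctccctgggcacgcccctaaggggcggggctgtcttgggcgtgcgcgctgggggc
Slc35e4 (chr11:3914665-3914914, minus strand): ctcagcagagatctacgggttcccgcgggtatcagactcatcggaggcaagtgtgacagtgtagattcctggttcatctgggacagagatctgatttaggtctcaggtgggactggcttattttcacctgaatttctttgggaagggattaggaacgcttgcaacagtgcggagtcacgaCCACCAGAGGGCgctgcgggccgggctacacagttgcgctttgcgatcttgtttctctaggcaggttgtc
Slc7a1 (chr5:148399905-148400154, minus strand): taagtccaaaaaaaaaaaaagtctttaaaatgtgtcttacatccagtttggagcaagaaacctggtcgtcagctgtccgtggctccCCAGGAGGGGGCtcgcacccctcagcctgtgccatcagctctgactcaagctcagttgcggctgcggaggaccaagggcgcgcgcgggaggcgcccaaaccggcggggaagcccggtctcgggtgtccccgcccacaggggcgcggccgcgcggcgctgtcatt
Slc7a11 (chr3:50443614-50443863, minus strand): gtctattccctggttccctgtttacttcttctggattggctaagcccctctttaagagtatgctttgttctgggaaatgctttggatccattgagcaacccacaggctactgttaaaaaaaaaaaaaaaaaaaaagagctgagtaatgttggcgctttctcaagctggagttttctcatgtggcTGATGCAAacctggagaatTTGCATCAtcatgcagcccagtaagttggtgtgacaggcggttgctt
The CTCF core lay in 13 of the 218 start windows of 300 bases that the table holds for 166 of the 216 members, which is 5.96%, and in 2.43% of all 32851 windows. Where a gene had a window with a match, such a window was printed. Slc29a1 has 8 start windows, of which 3 held a match, and Slc44a2 and Slc7a1 have 2 each, of which 1 did. The Slc16a3 window held no match to these letters. TGATGNAA lay in 6 of the 218 windows (2.75%) against 3.97% of all, and the Slc7a11 window is one with 2 matches. CACGTG, the E-box that MYC and its partners bind, lay in 28 of the 218 windows (12.8%) against 7.15% of all, among them those of Slc16a1, Slc20a1, Slc25a36 and Slc27a1. Matches of different motifs overlapped in 0 windows of members. Of the 11 members with a CTCF core, 7 were called for the mean effect of the Ctcf shRNA given further on, and so were 103 of all 166 members with a window. A match describes the letters of the window only.

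Between D0 and day 12 GFP+ cells, with control shRNA, carriers of vitamins and nucleosides rose as a group and most carriers of nucleotide sugars and metals fell, while amino acid, ion and mitochondrial carriers split about evenly. Of the 216 members, 83 rose, beside 40.1% of all genes, and 104 fell, beside 40.2% of all genes. The median over members was -0.15 on the log2 scale and over all genes -0.01. Among vitamin and nucleoside carriers 11 of 15 rose and 1 fell (median 1.17). Among nucleotide sugar carriers 3 of 23 rose and 19 fell (median -0.69), and among metal carriers 5 of 27 rose and 16 fell (median -0.49). Of 38 amino acid carriers 18 rose and 18 fell, of 34 mitochondrial carriers 14 and 14, and of 29 ion carriers 12 and 13. The plot of day 12 changes by class shows the vitamin and nucleoside genes to the right of 0 and the nucleotide sugar genes to the left, with the other classes on both sides.

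**Figure D1:**
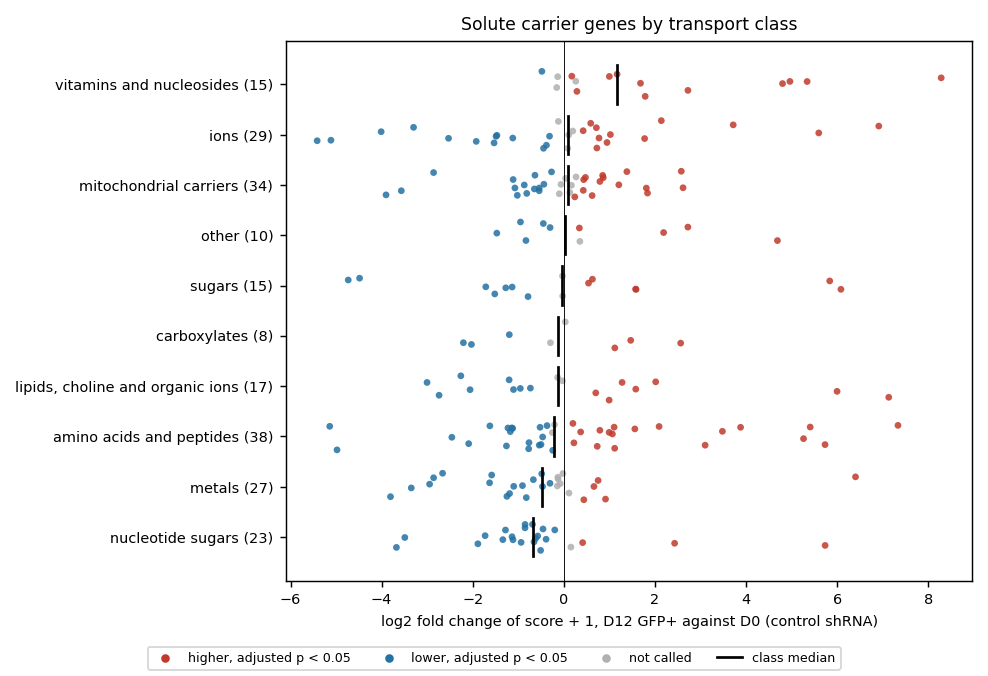
Log2 fold change of score + 1 between day 12 GFP+ cells and D0 cells, both with control shRNA, for the 216 solute carrier genes in 10 transport classes (number of genes in brackets). Each point is a gene, coloured by its call at adjusted p 0.05, with vertical jitter for display, and black bars are class medians; the vitamin and nucleoside class has its median at 1.17 and the nucleotide sugar class at -0.69.

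Among amino acid carriers, the cationic carrier Slc7a3 and the glutamine importer Slc1a5 had risen and the cystine carrier Slc7a11 had fallen by day 3. Slc7a3, a cationic amino acid carrier (GRCm38 chrX:101079210-101086020), had scores of 89 and 137 at D0, 2634 and 2568 in day 3 Thy1+ cells and 6062 and 5790 in day 12 GFP+ cells. Both day 3 libraries lay above both D0 libraries (log2 fold change 4.54, SE 0.12, adjusted p 1.49e-21), and most of the rise of 5.73 seen by day 12 was already present in day 3 Thy1+ cells. Slc1a5, the main glutamine importer (GRCm38 chr7:16781340-16798274), had 402 and 408 at D0, 914 and 966 in day 3 Thy1+ cells and 1740 and 1714 at day 12 (log2 fold change 2.09, SE 0.06, adjusted p 6.58e-21). Slc7a5, the light chain of the large neutral amino acid exchanger, had 1737 and 1560 at D0 and 3481 and 3594 at day 12 (log2 fold change 1.10, SE 0.09, adjusted p 1.79e-11). Its heavy chain partner Slc3a2 rose far less, from 2581 and 2550 to 2977 and 2911 (log2 fold change 0.20, SE 0.07, adjusted p 0.00818). Slc1a4, a carrier of alanine, serine and cysteine, and Slc38a2, the glutamine carrier that responds to amino acid shortage, rose by 1.11 (adjusted p 5.13e-12) and 0.99 (adjusted p 1.08e-12).

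The opposite course was that of Slc7a11 (GRCm38 chr3:49892526-50443614), which takes up cystine in exchange for glutamate and whose window above holds the pair of TGATGNAA matches. It had 384 and 505 at D0, 108 and 73 in day 3 Thy1+ cells and 111 and 95 at day 12. The drop was complete by day 3 (log2 fold change -2.30, SE 0.20, adjusted p 2.56e-10), and both D0 libraries lay above all libraries of the other 10 populations with control shRNA. Other genes of the amino acid response, from a list of 11 genes of which 1 has 2 rows, rose in 8 rows and fell in 4 between D0 and day 12, with a median of 0.80. Of all genes, 40.1% rose and 40.2% fell. Asns, which makes asparagine, rose by 1.74 (adjusted p 3.78e-17), and Phgdh, the entry enzyme of serine synthesis, fell by 1.15 (adjusted p 3.26e-12). Slc36a4, an amino acid carrier, went from 506 and 498 to 81 and 101 (log2 fold change -2.46, SE 0.18, adjusted p 8.52e-13). Slc36a1, its relative at the lysosome, fell to 170 and 193 from 554 and 568 (log2 fold change -1.62, SE 0.12, adjusted p 1.27e-12). Slc38a9, which senses arginine at the lysosome, was not called, with 263 and 294 and 218 and 249.

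The cationic exporter Slc7a7 and the glutamate carrier Slc1a3 rose between day 9 SSEA1+ and day 12 GFP+ cells. Slc7a7, which exports cationic amino acids, had 34 and 28 at D0, 79 and 104 in day 9 SSEA1+ cells and 504 and 434 at day 12, a step of 2.35 (SE 0.26, adjusted p 2.45e-08) between the last 2. Slc1a3, a glutamate carrier, had 98 and 81 in day 9 SSEA1+ cells, 324 and 379 in Thy1+ cells of that day and 456 and 522 at day 12 (log2 fold change 2.44, SE 0.19, adjusted p 5.23e-11 for day 12 against day 9 SSEA1+ cells). Slc15a2, a carrier of small peptides, had 164 and 110 in day 9 SSEA1+ cells and rose from 15 and 30 at D0 to 248 and 247 at day 12 (log2 fold change 3.48, SE 0.34, adjusted p 4.15e-10). Slc6a14, which takes up neutral and cationic amino acids, was uneven at D0, with 142 and 0, against 478 and 438 at day 12, and was highest in day 9 SSEA1+ cells, at 5838 and 5354. Its rise from D0 to day 12, 5.26 (SE 1.96, adjusted p 0.0163), became 1.68 (adjusted p 0.475) without D0 replicate 2 and 8.84 (adjusted p 0.000511) without D0 replicate 1. The call also missed the threshold without either day 12 library, at adjusted p 0.0568 and 0.0514. Slc38a1, a glutamine importer, rose by 0.22 (SE 0.08, adjusted p 0.014) between D0 and day 12, a call lost without D0 replicate 1 (0.21, adjusted p 0.0587) or day 12 replicate 1 (0.19, adjusted p 0.0834). Slc6a6, the taurine carrier, was not called, with 4315 and 4302 and 3654 and 3820.

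The cationic amino acid carriers Slc7a1, Slc7a2 and Slc7a3 were higher in SSEA1+ than in Thy1+ cells of day 6, and the creatine carrier was lower. Slc7a2, a cationic amino acid carrier (GRCm38 chr8:40862396-40922308), had 97 and 75 in Thy1+ and 321 and 332 in SSEA1+ cells of day 3, and 88 and 90 against 390 and 385 on day 6 (log2 fold change 2.11, SE 0.13, adjusted p 4.75e-14). On day 9 it had 354 and 318 in Thy1+ and 388 and 415 in SSEA1+ cells, a difference that was not called. Slc7a1, the housekeeping carrier of arginine and lysine (GRCm38 chr5:148327410-148399904), had 1298 and 1110 in Thy1+ and 4710 and 4544 in SSEA1+ cells of day 6 (log2 fold change 1.95, SE 0.12, adjusted p 5.83e-14). Slc7a3 had 1827 and 1790 in Thy1+ and 6096 and 5380 in SSEA1+ cells of that day (log2 fold change 1.66, SE 0.12, adjusted p 8.16e-13). Slc6a8, the creatine carrier, stood the other way, at 1514 and 1498 in Thy1+ and 351 and 382 in SSEA1+ cells (log2 fold change -2.04, SE 0.09, adjusted p 3.99e-17).

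**Figure D2:**
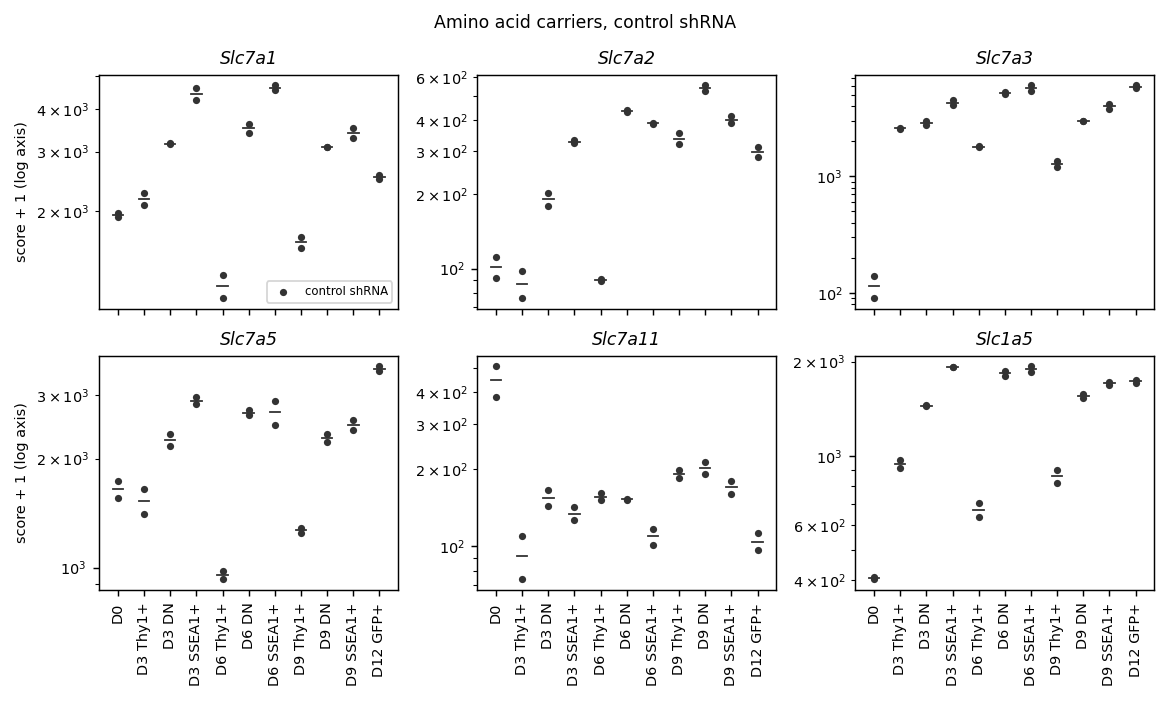
Scores (plus 1, log axis) of 6 amino acid carriers in the 11 populations with control shRNA, where points are the 2 libraries, bars their mean, and DN cells are those without SSEA1 and Thy1. Slc7a11 is highest at D0 in both libraries, Slc7a3 lowest, and Slc7a1 is higher in SSEA1+ than in Thy1+ cells on each day.

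The share of members lower in SSEA1+ than in Thy1+ cells was above that of all genes on each day, a gap that was not tested. On day 3, 80 members were higher (37%, beside 35.4% of all genes) and 71 lower (32.9%, beside 28.8% of all genes). On day 6, 79 were higher (36.6%, beside 42.4% of all genes) and 87 lower (40.3%, beside 33.8% of all genes). On day 9, 81 were higher (37.5%, beside 38.8% of all genes) and 77 lower (35.6%, beside 30% of all genes). The day 6 median over members was -0.055. The all-gene median of the day 6 comparison was 0.15, and centring the libraries on their medians moved it by -0.14. DN cells had a mean between those of Thy1+ and SSEA1+ cells for 157, 163 and 160 of the 216 members on days 3, 6 and 9. That count was not taken over all genes, so it does not set the members apart. Vitamin and nucleoside carriers leaned to SSEA1+ cells on each day, with 13 higher and 1 lower of 15 on day 3, 13 and 0 on day 6 and 12 and 1 on day 9. No other class had all of its day 6 calls in 1 direction.

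Among the vitamin and nucleoside carriers, nucleoside carriers gave the largest differences on day 6. Slc29a2, an equilibrative nucleoside carrier, had 87 and 82 in Thy1+ and 480 and 450 in SSEA1+ cells of day 6 (log2 fold change 2.45, SE 0.12, adjusted p 2.64e-16). Slc28a3, a sodium-driven nucleoside carrier, was listed at 0 in both D0 libraries and had 11 and 10 in Thy1+ and 121 and 110 in SSEA1+ cells of day 6 (log2 fold change 3.34, SE 0.45, adjusted p 2.07e-07). Both libraries of the SSEA1+ cells lay above both of the Thy1+ cells in these genes. Slc19a1, which imports reduced folates, had 357 and 342 in Thy1+ and 700 and 637 in SSEA1+ cells (log2 fold change 0.93, SE 0.11, adjusted p 1.52e-08). Slc5a6, the carrier of biotin and pantothenate, had 108 and 94 in Thy1+ and 261 and 254 in SSEA1+ cells (log2 fold change 1.34, SE 0.12, adjusted p 1.88e-10), and Slc52a3, a riboflavin carrier, differed by 2.02 (SE 0.26, adjusted p 7.64e-08).

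**Figure D3:**
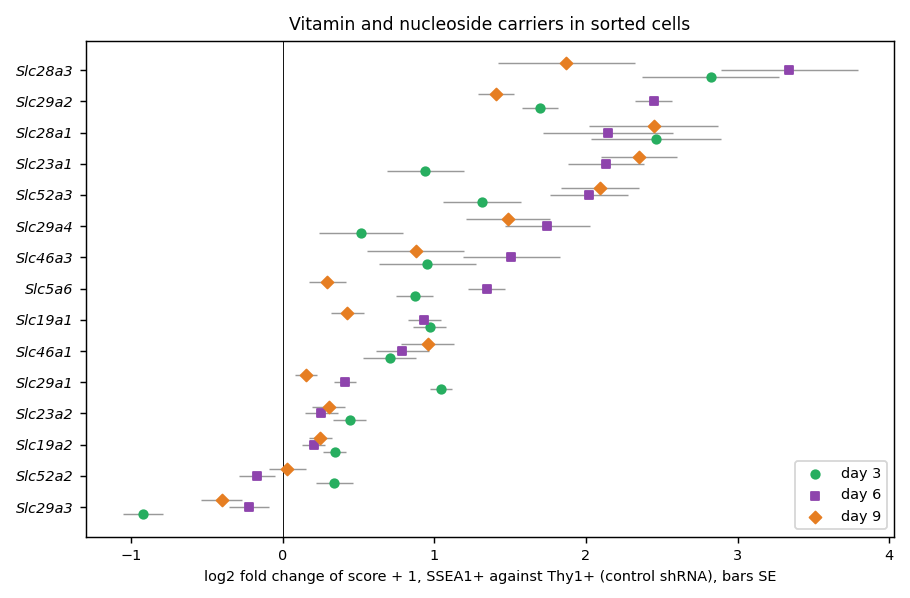
Log2 fold change of score + 1 between SSEA1+ and Thy1+ cells with control shRNA on days 3, 6 and 9 for the 15 vitamin and nucleoside carriers, with SE as bars. On day 6, 13 of the 15 were called higher in SSEA1+ cells and 0 lower.

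By day 12 the class had a second set of high members. Slc28a1, another sodium-driven nucleoside carrier (GRCm38 chr7:81114799-81170416), was listed at 0 in both D0 libraries and had 26 and 32 in day 9 SSEA1+ cells and 292 and 330 at day 12 (log2 fold change 3.38, SE 0.43, adjusted p 1.86e-07 against day 9). Slc29a1, the main equilibrative nucleoside carrier (GRCm38 chr17:45585200-45599606), had 260 and 255 at D0, 586 and 584 in day 9 SSEA1+ cells and 1724 and 1688 at day 12 (log2 fold change 2.72, SE 0.07, adjusted p 5.57e-22 against D0). Its day 12 libraries lay above those of all other populations with control shRNA. The medium held vitamin C, and both vitamin C carriers rose: Slc23a1 from 10 and 10 to 336 and 348 (log2 fold change 4.96, SE 0.25, adjusted p 5.09e-16) and Slc23a2 from 439 and 421 to 966 and 969 (log2 fold change 1.17, SE 0.11, adjusted p 1.62e-10). Slc46a1, the proton-coupled folate carrier, was the 1 member of the class that fell, with a log2 fold change of -0.48 (SE 0.18, adjusted p 0.0144). That call was lost without D0 replicate 1 (-0.32, adjusted p 0.176) or day 12 replicate 1 (-0.36, adjusted p 0.136).

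The lactate carriers Slc16a3 and Slc16a1 took different courses. Slc16a3, which exports lactate from glycolytic cells (GRCm38 chr11:120948480-120960868), had 452 and 514 at D0 and, on day 3, 44 and 48 in Thy1+ and 52 and 52 in SSEA1+ cells with control shRNA. It had 784 and 700 in Thy1+ and 934 and 971 in SSEA1+ cells of day 6 and reached 2926 and 2786 in day 12 GFP+ cells. Day 3 Thy1+ cells lay below D0 (log2 fold change -3.36, SE 0.17, adjusted p 4.22e-15) and day 12 cells above it (log2 fold change 2.56, SE 0.17, adjusted p 1.65e-13), and the 6 sorted libraries of day 3 were the 6 lowest of all libraries with control shRNA. Slc16a1, the carrier of lactate and pyruvate found in most cells (GRCm38 chr3:104638668-104658462), showed no such dip: it had 1336 and 1315 at D0, 4076 and 4232 in day 3 SSEA1+ cells and 3878 and 3466 at day 12 (log2 fold change 1.47, SE 0.11, adjusted p 3.6e-12). Of the membrane partners that bring these carriers to the surface, Emb rose by 1.63 (adjusted p 1.01e-15) and Bsg fell by 0.92 (adjusted p 1.77e-09) between D0 and day 12.

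Slc16a11, a proton-coupled monocarboxylate carrier, was higher in Thy1+ cells, with 316 and 326 in Thy1+ and 20 and 16 in SSEA1+ cells of day 6 (log2 fold change -4.09, SE 0.28, adjusted p 3.17e-13). Slc16a13 lies 371 bp from it on the other strand of chromosome 11 (GRCm38 chr11:70212752-70216417 and chr11:70216789-70221064). It fell from 211 and 228 at D0 to 52 and 54 at day 12 (log2 fold change -2.03, SE 0.15, adjusted p 1.39e-12).

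Of the 15 sugar carriers, 6 rose and 7 fell between D0 and day 12, beside 40.1% and 40.2% of all genes. Of the inositol carriers, Slc2a13 and Slc5a3 fell. Slc2a13, a proton-coupled myo-inositol carrier, had 176 and 191 at D0 and 5 and 7 at day 12 (log2 fold change -4.73, SE 0.23, adjusted p 1.23e-16). Slc5a3, the sodium-coupled one, had 2256 and 2222 at D0 and 832 and 734 at day 12 (log2 fold change -1.52, SE 0.14, adjusted p 9.71e-11). Slc5a11, a second sodium-coupled inositol carrier, was at 0 and 2 at D0 and at 111 and 122 at day 12 (log2 fold change 6.08, SE 0.67, adjusted p 4.31e-09). Slc2a8, a glucose carrier of intracellular membranes, rose from 138 and 110 to 374 and 364 (log2 fold change 1.57, SE 0.19, adjusted p 1.76e-08). Slc2a10, a facilitative carrier of intracellular membranes, fell from 92 and 96 to 2 and 5 (log2 fold change -4.49, SE 0.32, adjusted p 6.23e-13). Slc2a9, a urate carrier, fell by 1.28 (adjusted p 1.12e-07). Slc37a4, which brings glucose 6-phosphate into the endoplasmic reticulum, was highest in SSEA1+ cells of days 3 and 6, with 202 and 237 on day 3, 101 and 104 in Thy1+ and 238 and 224 in SSEA1+ cells of day 6 (log2 fold change 1.16, SE 0.14, adjusted p 3.79e-08).

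Bicarbonate carriers moved in opposite directions. Slc4a4, an electrogenic sodium bicarbonate cotransporter (GRCm38 chr5:88886818-89239653), fell from 550 and 565 at D0 to 29 and 39 at day 12 (log2 fold change -4.01, SE 0.22, adjusted p 2.32e-15). Slc4a3, a chloride bicarbonate exchanger (GRCm38 chr1:75546266-75562172), rose from 130 and 126 to 1751 and 1642 (log2 fold change 3.72, SE 0.08, adjusted p 1.19e-23). It was highest in day 6 SSEA1+ cells, at 2699 and 2802 against 398 and 384 in Thy1+ cells (log2 fold change 2.81, SE 0.08, adjusted p 6.38e-21). Slc4a2, the widespread exchanger of the same family, fell from 1930 and 1954 to 544 and 480 (log2 fold change -1.92, SE 0.08, adjusted p 4.27e-18), and Slc4a11 rose by 2.14 (SE 0.12, adjusted p 1.81e-15). Of the calcium exporters, Slc8a1, the sodium calcium exchanger, had 175 and 198 at D0 and 18 and 18 at day 12 (log2 fold change -3.30, SE 0.17, adjusted p 1.02e-15), and Slc24a3, a potassium-dependent one, 80 and 89 and 1 and 1 (log2 fold change -5.42, SE 0.35, adjusted p 7.16e-14). Potassium chloride cotransporters divided, with log2 fold changes of -1.12 (SE 0.08, adjusted p 2.25e-13) for Slc12a4 and 1.02 (SE 0.08, adjusted p 1.44e-11) for Slc12a7. The phosphate importers Slc20a1 and Slc20a2 were not called between D0 and day 12 but rose from day 9 SSEA1+ to day 12 GFP+ cells, Slc20a1 from 2352 and 2278 to 5220 and 4948 (log2 fold change 1.13, SE 0.07, adjusted p 9.96e-13) and Slc20a2 by 0.54 (SE 0.07, adjusted p 6.32e-07). Slc12a2, a sodium potassium chloride cotransporter, rose from 1424 and 1459 to 2008 and 1861 (log2 fold change 0.42, SE 0.09, adjusted p 0.000179). Of 5 measured genes of the sodium pump, which sets the gradient these carriers use, 2 rose and 3 fell, beside 40.1% and 40.2% of all genes.

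Most members of the zinc importer family that were called fell. Slc39a13, a zinc carrier of the early secretory pathway that connective tissue needs (GRCm38 chr2:91061791-91070417), had 1523 and 1444 at D0 and 134 and 156 at day 12 (log2 fold change -3.35, SE 0.13, adjusted p 1.06e-18). On day 3 it had 992 and 988 in Thy1+ and 175 and 194 in SSEA1+ cells (log2 fold change -2.42, SE 0.13, adjusted p 5.09e-15), and all 6 Thy1+ libraries of days 3 to 9 lay between 980 and 1095. Slc39a6 (GRCm38 chr18:24579881-24603817) fell from 3582 and 3716 to 478 and 466 (log2 fold change -2.95, SE 0.06, adjusted p 4.28e-24) and Slc39a1 from 2074 and 2196 to 708 and 713 (log2 fold change -1.58, SE 0.08, adjusted p 1.88e-16). Slc39a10, the partner of Slc39a6 at the plasma membrane, rose by 0.44 (SE 0.11, adjusted p 0.000765), and Slc39a14, a carrier of zinc and iron, by 0.91 (SE 0.08, adjusted p 8.72e-11). Slc39a4, the zinc importer of the intestine, had 2 and 5 at D0, 52 and 48 in day 9 SSEA1+ cells and 348 and 368 at day 12 (log2 fold change 2.82, SE 0.64, adjusted p 0.000464 against day 9). All 3 magnesium carriers of the Slc41 family fell, Slc41a2 from 601 and 556 to 48 and 34 (log2 fold change -3.81, SE 0.15, adjusted p 2.71e-18), Slc41a1 by 0.67 (adjusted p 2.89e-05) and Slc41a3 by 2.86 (adjusted p 4.24e-08). Slc30a4, a zinc exporter to vesicles, was highest in day 6 Thy1+ cells, at 13941 and 12646 against 3633 and 3924 in SSEA1+ cells (log2 fold change -1.81, SE 0.10, adjusted p 4.91e-15), and had 5528 and 5620 at D0 and 2224 and 2464 at day 12. Slc39a8, a zinc and manganese importer, had 394 and 364 at D0, 36 and 36 in SSEA1+ cells of day 3 and 462 and 440 in those of day 9 (log2 fold change 3.61, SE 0.28, adjusted p 2.88e-11). Its fall from D0 to day 3 Thy1+ cells (-0.99, adjusted p 0.00652) became -0.70 (adjusted p 0.119) without replicate 1 of the Thy1+ cells. Among iron carriers, the exporter Slc40a1 had 68 and 60 in Thy1+ and 203 and 190 in SSEA1+ cells of day 3 (log2 fold change 1.60, SE 0.19, adjusted p 5.11e-08), and the importer Slc11a2 fell by 0.49 between D0 and day 12 (adjusted p 4.54e-06). The mitochondrial iron importers moved apart, Slc25a37 with -0.91 (SE 0.11, adjusted p 1.7e-08) and Slc25a28 with 0.75 (SE 0.18, adjusted p 0.000425). Iron handling genes outside the family gave 2 higher and 5 lower of 8 in the same comparison, beside 40.1% and 40.2% of all genes.

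Slc11a1, an iron and manganese carrier of macrophage phagosomes, went from 70 and 86 at D0 to 10 and 9 in day 3 Thy1+ cells (log2 fold change -2.91, SE 0.73, adjusted p 0.00224). Slc7a8, a neutral amino acid exchanger, went from 146 and 112 to 24 and 27 (log2 fold change -2.28, SE 0.34, adjusted p 4.44e-06), and Slc15a3, a lysosomal peptide carrier, from 550 and 562 to 386 and 366 (log2 fold change -0.56, SE 0.13, adjusted p 0.00103). The summed score of 8 macrophage markers was 6993 to 8433 at D0 and 2108 to 2229 in day 3 Thy1+ cells. Of these 8 markers, 6 were lower (20.1% of all genes), 1 was higher (22.3% of all genes) and 0 were at a score of 0. Their part in these changes was not tested.

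The adenine nucleotide carriers of mitochondria moved in opposite directions. Slc25a4, the isoform of muscle and heart (GRCm38 chr8:46206797-46211284), fell from 5332 and 5436 at D0 to 2692 and 2296 at day 12 (log2 fold change -1.11, SE 0.13, adjusted p 2.3e-08), and Slc25a5, the isoform of dividing cells (GRCm38 chrX:36795651-36798807), rose from 5860 and 6150 to 11391 and 10477 (log2 fold change 0.86, SE 0.12, adjusted p 3.41e-07). Both D0 libraries lay above both day 12 libraries for the first gene and below them for the second. Among ATP-magnesium phosphate carriers, Slc25a24 (GRCm38 chr3:109123149-109168457) fell from 3677 and 4172 to 330 and 328 (log2 fold change -3.57, SE 0.09, adjusted p 3.63e-23), and its relative Slc25a23 rose from 61 and 52 to 333 and 369 (log2 fold change 2.62, SE 0.15, adjusted p 6.88e-15). Slc25a13, the aspartate glutamate carrier of the liver type, rose from 742 and 726 to 2602 and 2644 (log2 fold change 1.84, SE 0.09, adjusted p 1.43e-16), and Slc25a38, which supplies glycine for heme, by 1.38 (SE 0.10, adjusted p 1.14e-12). The citrate carrier Slc25a1 rose by 0.43 (SE 0.08, adjusted p 2.23e-05), and the carnitine carrier Slc25a20, which brings in fatty acids for oxidation, fell by 0.44 (adjusted p 0.000131). The phosphate carrier Slc25a3 was not called, with 12442 and 10988 at D0 and 12442 and 11570 at day 12.

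Most carriers that bring activated sugars and sulfate into the Golgi fell. Slc35a1, for CMP-sialic acid, had 669 and 719 at D0 and 330 and 300 at day 12 (log2 fold change -1.14, SE 0.15, adjusted p 1.73e-07), Slc35b4, for UDP-xylose, 1418 and 1430 and 436 and 422 (log2 fold change -1.73, SE 0.09, adjusted p 1.24e-15), and Slc35b2, for the sulfate donor PAPS, 730 and 757 and 410 and 412 (log2 fold change -0.85, SE 0.11, adjusted p 7.51e-08). Slc35e4, a relative without a known substrate (GRCm38 chr11:3907021-3914664), had 2223 and 2116 and 160 and 178 (log2 fold change -3.68, SE 0.09, adjusted p 4.3e-23). Slc35g2, another relative, also fell, from 576 and 399 to 31 and 56, and its call (log2 fold change -3.49, SE 1.39, adjusted p 0.0236) was lost without D0 replicate 1 (adjusted p 0.0929), D0 replicate 2 (0.0515) or day 12 replicate 1 (0.108). Slc35a2, for UDP-galactose, and Slc35d1, for UDP-glucuronic acid, changed by -0.69 (SE 0.14, adjusted p 7.81e-05) and -0.57 (SE 0.10, adjusted p 4.57e-06). The 3 members that rose were relatives of this class. Slc35f2 (GRCm38 chr9:53771538-53818154) went from 18 and 20 to 1054 and 1072 (log2 fold change 5.74, SE 0.21, adjusted p 2.42e-19) and Slc35g1 from 127 and 154 to 764 and 753 (log2 fold change 2.43, SE 0.15, adjusted p 4.2e-14). The third was Slc35e2, at 270 and 306 and 360 and 407, whose call (log2 fold change 0.41, SE 0.18, adjusted p 0.037) was lost without D0 replicate 1 (0.32, adjusted p 0.188) or day 12 replicate 2 (0.32, adjusted p 0.186).

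The choline carriers Slc44a2 and Slc5a7 and the urea carrier Slc14a1 were higher in Thy1+ than in SSEA1+ cells. Slc44a2, a choline transporter-like gene (GRCm38 chr9:21320698-21355028), had 1556 and 1458 in Thy1+ and 122 and 135 in SSEA1+ cells of day 3 (log2 fold change -3.54, SE 0.07, adjusted p 1.98e-23). Its relative Slc44a1 instead rose with time, from 493 and 482 at D0 to 2091 and 1866 at day 12 (log2 fold change 2.02, SE 0.09, adjusted p 1.29e-17). Slc33a1, which brings acetyl-CoA into the endoplasmic reticulum, fell from 747 and 774 to 329 and 331 (log2 fold change -1.20, SE 0.08, adjusted p 2.98e-13), and Slc22a5, the carnitine importer, rose by 0.70 (SE 0.17, adjusted p 0.000438). Slc5a7, the high-affinity choline carrier known from cholinergic neurons, had 448 and 472 in Thy1+ and 10 and 9 in SSEA1+ cells of day 6 (log2 fold change -5.46, SE 0.41, adjusted p 3.48e-12). Slc14a1, a urea carrier (GRCm38 chr18:78100091-78142119), gave the widest gap of the named members on that day, 1743 and 1760 against 10 and 18 (log2 fold change -6.92, SE 0.40, adjusted p 1.02e-14). It stood at 22 and 28 at D0, far below the day 6 Thy1+ libraries. Slc48a1, a heme carrier, had 1936 and 1851 and 222 and 236 (log2 fold change -3.04, SE 0.10, adjusted p 1.28e-19). The scaffold genes divided too: Slc9a3r1 rose from 306 and 390 at D0 to 1644 and 1516 at day 12 (log2 fold change 2.19, SE 0.11, adjusted p 3.21e-16), while Slc9a3r2 had 352 and 384 in Thy1+ and 52 and 59 in SSEA1+ cells of day 3 (log2 fold change -2.71, SE 0.18, adjusted p 4.22e-13).

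The timing of these changes differed between members. From D0 to day 3 Thy1+ cells 55 members rose (22.3% of all genes) and 40 fell (20.1% of all genes). Between SSEA1+ cells of days 3 and 9, 60 rose (27.1% of all genes) and 77 fell (31.1% of all genes), and from day 9 SSEA1+ to day 12 GFP+ cells 54 rose (25.5% of all genes) and 90 fell (33.6% of all genes). The highest mean with control shRNA lay at D0 for 44 members, in day 12 GFP+ cells for 41 and in day 3 SSEA1+ cells for 34. Slc6a15, a carrier of branched-chain amino acids and proline, was one of the last kind, with 674 and 732 at D0, 3284 and 3200 in day 3 SSEA1+ cells and 894 and 1002 in day 9 SSEA1+ cells (log2 fold change -1.77, SE 0.16, adjusted p 3.72e-10). DN cells held the highest mean for 3, 6 and 3 members on days 3, 6 and 9. These counts of highest means were not taken over all genes.

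With the Ctcf shRNA, the lactate exporter Slc16a3 and bicarbonate carriers were among the members with large changes. The mean effect over the 11 populations was higher for 72 members, beside 26.2% of all genes, and lower for 58, beside 25.8% of all genes, with a median of 0.00 over members and over all genes. Slc16a3 had the largest negative mean effect, -1.95 (SE 0.05, adjusted p 1.36e-20). Nucleotide sugar carriers gave 11 higher and 3 lower of 23, carboxylate carriers 5 and 1 of 8, and vitamin and nucleoside carriers 1 and 6 of 15. Calls in single populations were made for 172 members, in both directions for 38 of them, and 44 had none. The same counts were not taken over all genes, so they do not set these members apart.

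Slc16a3 was not called at D0 and was far lower with the Ctcf shRNA in all populations of day 6. At D0 it had 452 and 514 with control and 634 and 448 with Ctcf shRNA, and in day 3 Thy1+ cells 44 and 48 and 41 and 31. On day 6 the values were 784 and 700 with control and 29 and 34 with Ctcf shRNA in Thy1+ cells (log2 fold change -4.52, SE 0.17, adjusted p 3.54e-16), 804 and 757 and 22 and 14 in DN cells (log2 fold change -5.39, SE 0.17, adjusted p 4.02e-18), and 934 and 971 and 50 and 52 in SSEA1+ cells (log2 fold change -4.20, SE 0.17, adjusted p 1.47e-15). The groups did not overlap in any of the 3 populations of that day. On day 9 it had 852 and 846 and 388 and 396 in SSEA1+ cells (log2 fold change -1.11, SE 0.17, adjusted p 3.61e-05), and in day 12 GFP+ cells 2926 and 2786 and 1239 and 1322 (log2 fold change -1.16, SE 0.17, adjusted p 3.59e-06). The effect was called in 7 of 11 populations and differed between populations (adjusted p 2.17e-15 for the difference). Slc16a1 was not called for the mean effect (adjusted p 0.216) and had 2306 and 2388 and 1978 and 1792 in day 6 Thy1+ cells.

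Its relatives Slc16a11 and Slc16a13 were higher with the Ctcf shRNA. These neighbours gave mean effects of 0.64 (SE 0.08, adjusted p 3.82e-07) and 0.48 (SE 0.04, adjusted p 1.33e-09). Slc16a11 had 112 and 132 and 304 and 329 in day 6 DN cells (log2 fold change 1.37, SE 0.28, adjusted p 0.000263), and Slc16a13 127 and 156 and 302 and 252 (log2 fold change 0.97, SE 0.15, adjusted p 9.95e-06). In day 9 DN cells the Slc16a11 effect of 1.11 (SE 0.28, adjusted p 0.00395) fell to 0.90 (adjusted p 0.0625) without replicate 1 of the Ctcf shRNA.

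**Figure D4:**
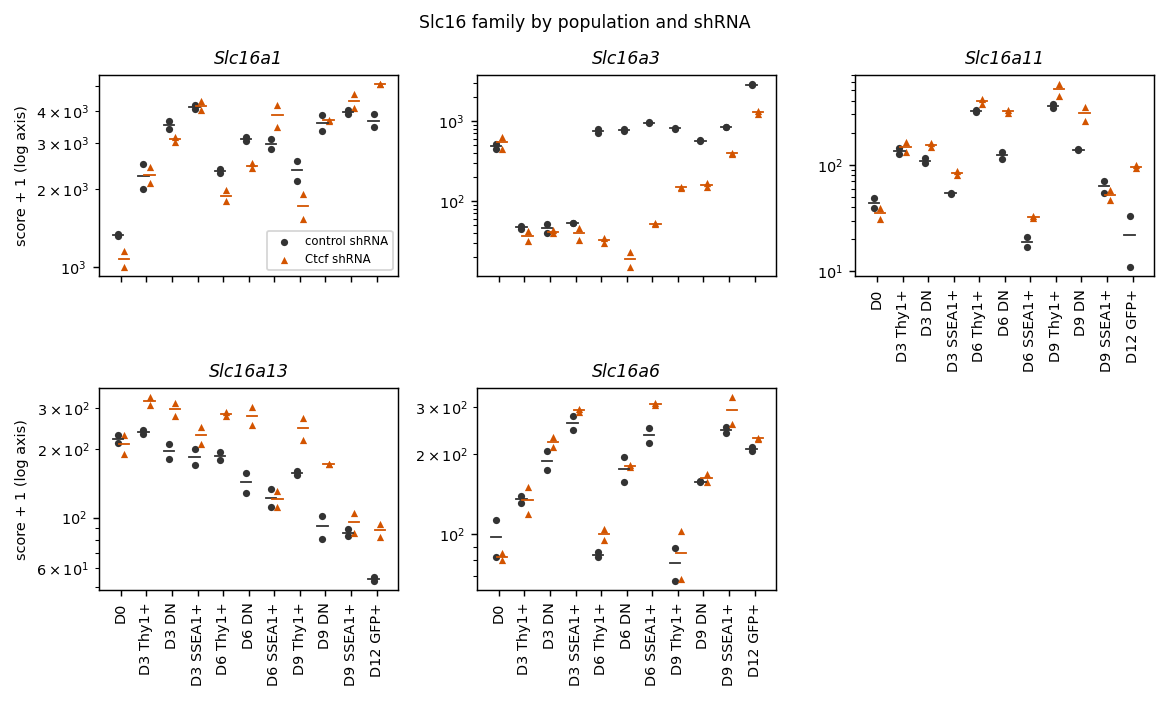
Scores (plus 1, log axis) of 5 Slc16 genes in 11 populations with control shRNA (circles) and Ctcf shRNA (triangles), where bars are means of 2 libraries and DN cells lack SSEA1 and Thy1. In all 3 day 6 populations both Slc16a3 libraries with Ctcf shRNA lie below both with control shRNA.

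Among ion carriers, Slc4a3 was lower with the Ctcf shRNA in 10 of 11 populations and called in 9. Its scores with control and Ctcf shRNA were 130 and 126 and 143 and 122 at D0, 2699 and 2802 and 1611 and 1562 in day 6 SSEA1+ cells (log2 fold change -0.79, SE 0.08, adjusted p 1.06e-07) and 1751 and 1642 and 951 and 991 in day 12 GFP+ cells (log2 fold change -0.80, SE 0.08, adjusted p 1.12e-08). Slc4a4, which fell on the way to day 12, had a mean effect of 0.54 (SE 0.07, adjusted p 1.23e-07), with 29 and 39 and 92 and 120 at day 12. Outside the ion carriers, the urea carrier Slc14a1 was lower in 10 of 11 populations and called in 6, with a mean effect of -1.03. It had 1743 and 1760 and 524 and 582 in day 6 Thy1+ cells (log2 fold change -1.66, SE 0.40, adjusted p 0.00549) and 1236 and 1348 and 1162 and 1118 in day 9 Thy1+ cells, a log2 fold change of -0.18 that was not called (adjusted p 0.803).

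Slc29a1, an equilibrative nucleoside carrier, was lower with the Ctcf shRNA in 10 of 11 populations and called in 8. It had 418 and 454 and 281 and 275 in day 6 Thy1+ cells (log2 fold change -0.65, SE 0.07, adjusted p 7.67e-07) and 1724 and 1688 and 1046 and 1041 at day 12 (log2 fold change -0.71, SE 0.07, adjusted p 1.18e-08), but 260 and 255 and 252 and 284 at D0. Of the 38 amino acid carriers, 10 had a higher and 13 a lower mean effect, beside 26.2% and 25.8% of all genes. Among the lower ones, Slc7a2 had -0.37 (SE 0.04, adjusted p 1.38e-08), Slc1a4 -0.29 (SE 0.03, adjusted p 9.41e-10) and Slc1a5 -0.20 (SE 0.02, adjusted p 3.13e-09). Day 9 DN cells had 10 of 38 higher (14.6% of all genes) and 5 lower (13.4% of all genes). In day 9 Thy1+ cells, where 10 of 38 amino acid carriers were lower (12.1% of all genes) and 1 higher (7.51% of all genes), Slc7a3 had 1370 and 1197 with control and 610 and 632 with Ctcf shRNA (log2 fold change -1.04, SE 0.12, adjusted p 2.47e-07) and Slc7a1 1685 and 1562 and 837 and 962 (log2 fold change -0.85, SE 0.12, adjusted p 9.05e-06). Slc27a1, a fatty acid carrier, was higher in 10 of 11 populations, with 764 and 763 and 1236 and 1216 in day 6 Thy1+ cells (log2 fold change 0.68, SE 0.07, adjusted p 8.56e-08). The amino acid and peptide carriers Slc15a2, Slc38a6 and Slc36a1 had mean effects of 0.42, 0.32 and 0.32, and Slc2a8 and Slc27a3 of -0.33 and -0.32.

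**Figure D5:**
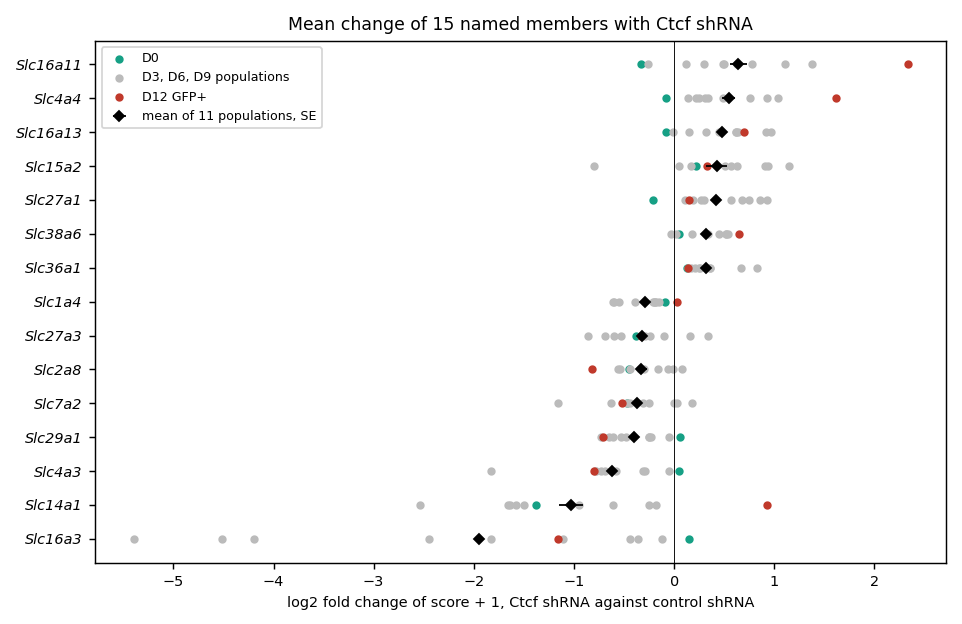
Log2 fold change of score + 1 between Ctcf shRNA and control shRNA for 15 named members, where grey points are the sorted populations of days 3 to 9, green D0, red day 12 GFP+ cells and black diamonds the mean over 11 populations with its SE. Of these, Slc16a3 has the lowest mean, -1.95, with D0 close to 0, and Slc16a11 the highest, 0.64.

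One member outside the rule for named genes, whose highest mean was too low for it and which was chosen after its values were seen, moved in more populations than any other. Slc25a45, a mitochondrial carrier (GRCm38 chr19:5877808-5885878), was called higher with the Ctcf shRNA in 10 populations and had a mean effect of 1.60 (SE 0.08, adjusted p 2.02e-15). Its scores were 33 and 30 with control and 24 and 32 with Ctcf shRNA at D0, 20 and 31 and 102 and 124 in day 3 SSEA1+ cells and 19 and 15 and 104 and 94 in day 6 SSEA1+ cells (log2 fold change 2.48, SE 0.25, adjusted p 5.33e-08). At D0 the groups overlapped, and in the other 2 the libraries with Ctcf shRNA were the higher ones.

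With the Ctcf shRNA, 6 to 23 members were called at D0 and in the populations of day 3, and 38 to 97 in those of days 6 to 12. At D0, 4 were higher (2.93% of all genes) and 19 lower (3.75% of all genes). In Thy1+ cells 4 were higher (1.46% of all genes) and 2 lower (2.56% of all genes) on day 3, 20 (6.83% of all genes) and 18 (7.56% of all genes) on day 6, and 19 (7.51% of all genes) and 32 (12.1% of all genes) on day 9. In SSEA1+ cells 5 were higher (3.56% of all genes) and 14 lower (3.22% of all genes) on day 3, 35 (11.2% of all genes) and 20 (11% of all genes) on day 6, and 17 (4.8% of all genes) and 23 (9.04% of all genes) on day 9. In DN cells 6 were higher (2.34% of all genes) and 12 lower (2.54% of all genes) on day 3, 58 (20.2% of all genes) and 39 (21.9% of all genes) on day 6, and 46 (14.6% of all genes) and 26 (13.4% of all genes) on day 9. Day 12 GFP+ cells gave 61 higher (24.6% of all genes) and 36 lower (24.7% of all genes). Without single libraries several of these sums moved by over 1.5 times. At D0 the 23 calls became 51 without replicate 1 and 3 without replicate 2 of the Ctcf shRNA, and 6 and 11 without control replicates 1 and 2. On day 3 the 6 calls in Thy1+ cells became 3 and 2 without control replicates 1 and 2, and the 19 in SSEA1+ cells 12 without replicate 1 of the Ctcf shRNA and 10 and 11 without control replicates 1 and 2. The 18 calls in day 3 DN cells became 8 and 6 without replicates 1 and 2 of the Ctcf shRNA and 6 and 7 without those of the control. On day 6, the 38 calls in Thy1+ cells became 20 without replicate 2 of the Ctcf shRNA and 23 without control replicate 1, and the 55 in SSEA1+ cells 34 without replicate 2 of the Ctcf shRNA and 35 and 33 without control replicates 1 and 2. The 40 calls in day 9 SSEA1+ cells became 25 and 23 without replicates 1 and 2 of the Ctcf shRNA and 17 without control replicate 2.

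When limma was fitted to only the 4 libraries of a population, calls of members given by value missed the threshold for Slc25a45 and Slc4a3 in day 6 SSEA1+ cells, Slc29a1 in day 6 Thy1+ cells, Slc16a3 and Slc48a1 in day 9 SSEA1+ cells and Slc7a1 in day 9 Thy1+ cells, with the same fold changes.

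The size of the effect depended on the population for 128 of the 216 members, beside 56% of all genes. Slc44a2 and Slc35e4 were among the 8 with the smallest p-values. Slc35e4 had 2223 and 2116 with control and 1748 and 1738 with Ctcf shRNA at D0, and 160 and 178 and 508 and 474 in day 12 GFP+ cells (log2 fold change 1.53, SE 0.09, adjusted p 1.55e-13). Slc25a24 had 330 and 328 and 890 and 880 at day 12 (log2 fold change 1.43, SE 0.09, adjusted p 3.01e-13), and Slc44a2 936 and 1006 and 1479 and 1425 (log2 fold change 0.58, SE 0.07, adjusted p 2.01e-07). Slc48a1 was lower with the Ctcf shRNA in day 9 SSEA1+ cells, at 594 and 620 and 250 and 258 (log2 fold change -1.25, SE 0.10, adjusted p 2.06e-09), and higher at day 12, at 355 and 354 and 603 and 570 (log2 fold change 0.72, SE 0.10, adjusted p 2.6e-06). All 4 fell between D0 and day 12 with control shRNA and were higher at day 12 with the Ctcf shRNA. Metal carriers as a class gave 10 higher (24.6% of all genes) and 1 lower (24.7% of all genes) of 27 at day 12, among them Slc30a4 with 2224 and 2464 and 4581 and 4246 (log2 fold change 0.91, SE 0.10, adjusted p 3.22e-08). Slc5a5, the iodide carrier, had 136 and 128 with control and 514 and 518 with Ctcf shRNA (log2 fold change 1.96, SE 0.59, adjusted p 0.00749), and Slc2a8 374 and 364 and 213 and 204 (log2 fold change -0.82, SE 0.19, adjusted p 0.000758). In the same day 12 libraries the summed fibroblast markers were 12984 to 13873 with control and 36831 to 37297 with Ctcf shRNA, the pluripotency markers 38924 to 39616 and 23053 to 23191, and 7 epithelial markers 17877 to 17982 and 27938 to 27955. The fibroblast sums also differed in day 9 SSEA1+ cells, at 33266 to 33956 with control and 11458 to 12829 with Ctcf shRNA. In day 6 DN cells, where Slc16a3 and Slc4a3 had their lowest effects, the fibroblast sums were 23735 to 24548 and 53053 to 53509. The pluripotency sums of those DN cells were 497 to 514 and 148 to 149. The part of these markers in the changes of members was not tested.

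At day 10, CTCF overexpression gave no call with limma, where Ctcf itself had 1262 and 1234 in the control and 5110 and 6132 with oeCTCF. Of 175 members measured there, 0 were higher with oeCTCF (0.0618% of all genes) and 0 lower (0% of all genes), where the 2 nearly identical control libraries were averaged to 1 sample, and 12 had an unadjusted p below 0.05. Counting all 6 libraries gave 1 call. With the Smarca5 shRNA added to oeCTCF, limma called none: 0 were higher (0.0387% of all genes) and 0 lower (0.0387% of all genes), and 3 had an unadjusted p below 0.05. Slc16a3 had 4578 and 4522 in the control libraries and 5897 and 4006 with oeCTCF, so the groups overlapped. Slc29a1 had 694 and 686 in the control and 1110 and 882 with oeCTCF, which did not overlap but gave no call, and 749 and 863 with the Smarca5 shRNA added. The authors' deposited table of day 10 shRNA cells gave means of 8455 for Slc16a3 where Ctcf was lower and 7704 where it was higher, a log2 ratio of 0.13 (p 3.32e-05), which is small beside the sorted day 6 values and of the opposite sign. The same deposited table put Slc25a45 at 291.3 and 201.9 (log2 ratio 0.53, p 0.00987), higher where Ctcf was lower. Ctcf itself differed by a log2 ratio of -0.34 in that table. At p below 0.05, 31 members were higher with less Ctcf and 18 lower. The same shares were 6.03% and 5.71% of its 29161 rows with a mean above the lowest value given. Those rows were not selected by level as the members were, so the shares do not set the members apart. Of the 130 members called for the mean effect in sorted cells, 66 had the same sign in the authors' deposited table. Of the 34 that also had p below 0.05 there, 21 had the same sign. Slc7a3, Slc1a5, Slc7a2 and Slc38a6 were among those with the opposite sign, at log2 ratios of 0.21, 0.18, 0.14 and -0.21 with less Ctcf.

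The MEF and iPSC libraries, with 16593659 and 9912018 counts, give a look at the same genes outside the sorted series, without replicates and so without a test. Of 207 members found, 45 were past 4-fold higher in iPSC (11% of all genes) and 19 past 4-fold higher in MEF (11.2% of all genes), on CPM plus 1. The median over members was 0.56 on the log2 scale and that over 12167 genes with at least 50 counts was -0.01. Of members called higher at day 12 than at D0, 76 of 80 were higher in iPSC, and of those called lower 58 of 98 were lower. Slc35f2 had 1 count in MEF and 3245 in iPSC, Slc39a4 1 and 1832, and Slc25a24 2698 and 36. Slc28a1 had 0 and 497. Slc16a3 had 799 and 6277 counts, and Slc7a3 226 and 3280. Of 53 members past 4-fold between D0 and day 12, 33 were past 4-fold the same way in these libraries and 0 the opposite way.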

How the data were processed

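Per the submitters' processing notes, reads were handled with Trim Galore, FastQC and RSEM (no versions) on GRCm38 (mm10), and on mm9 for the MEF and iPSC libraries; whether counting used strand is not given in the sources used here. In the sorted-cell and day 10 overexpression tables the authors deposited a score, a normalized and rounded value. The summed score of a library lay between 31777102 and 31798964 in the former, and between 18206150 and 18403408 over the genes of the latter. How the values were normalized is not given in the sources used here. For MEF and iPSC the deposited values are raw counts. In the day 10 shRNA table, which has no header, the authors deposited the mean of each condition (not below 0.5), a log2 ratio between the means, and a p-value of unstated adjustment. Its columns were told from their arithmetic, and directions are relative to Ctcf. No single library of the 4 samples of that comparison was analysed here.

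The scores are normalized, which bars a count model. All groups of a table entered a single limma 3.58.1 fit (R 4.3.3) of log2(score + 1), with a variance trend and a coefficient for each group. The tested genes reached a score of 10 in 2 or more libraries, and p-values were adjusted over all genes by Benjamini-Hochberg. The mean effect averages the 11 Ctcf shRNA contrasts, and the difference between populations is an F test on them. The method was tested on simulated data. In the 2 day 10 control libraries the squared difference over the sum had a median of 0.149 over genes, against 0.725 for the next closest pair. For raw counts that differ by counting alone it would be 0.455, but scores are not raw counts. The 2 control libraries were averaged to 1 sample, which the plan had not foreseen.

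The members, transport classes and lists were chosen with earlier results of these data known. Members named are, per direction, those with the largest called change, a higher group mean of at least 300 and libraries that do not overlap: 10 for day 12 against D0, 6 for other stage or population comparisons, 8 for the mean effect (at least 9 populations moving the same way), 3 for each population, and the 8 with the smallest p for the difference. To these were added 80 members of textbook role, and 2 named members are not reported here. Slc5a3, Slc5a11, Slc24a3, Slc25a36, Slc25a38, Slc25a45, Slc27a2, Slc28a3, Slc35e2, Slc38a5, Slc41a3 and Slc52a3 were chosen after their values were seen. Replicate numbers are not said to mark a shared culture. Coordinates come from GENCODE on GRCm38.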

Additional observations from a re-analysis of the deposited data

Results flagged for a closer look

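The effect of the Ctcf shRNA differed between the 11 populations, by the limma F test on the difference of the effects over all genes. Among the members the smallest adjusted p was that of the lactate exporter Slc16a3, 2.17e-15, whose effect ran from 0.14 at D0 to -5.39 in day 6 DN cells. The choline transporter-like gene Slc44a2 (adjusted p 8.09e-11) and the nucleotide sugar carrier relative Slc35e4 (adjusted p 1.04e-10) followed. For the bicarbonate exchanger Slc4a3 the adjusted p was 1.06e-10, with effects from 0.04 at D0 to -1.83 in day 6 DN cells. The mitochondrial carrier Slc25a24 had 1.32e-10 and the heme carrier Slc48a1 4.53e-10, with effects of Slc48a1 from -1.25 in day 9 SSEA1+ cells to 0.72 in day 12 GFP+ cells. The fatty acid carrier Slc27a1 had 1.24e-09 and the inositol carrier Slc2a13 3.4e-08. These tests share the libraries of the effects they compare.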

How the results depend on the processing

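Of 3307 refits of 238 single-member values under the alternatives, 0 reversed. The number of called members stayed within 1.5 times under another pseudocount (8), a mean score of at least 50, no mean-variance trend, centring on the median and quantile normalization. Counts in this section are of members alone, without the shares of all genes at the same setting. They show only how the calls depend on the setting. With a log2 fold change of at least 1 required, 110 members stayed called at day 12 against D0, 48, 77 and 68 in SSEA1+ against Thy1+ cells on days 3, 6 and 9, 28 in day 3 Thy1+ cells against D0, and 52 and 46 from day 3 to day 9 SSEA1+ cells and on to day 12. For the Ctcf shRNA this left 3 at D0, 5 and 4 in SSEA1+ and DN cells of day 3, 6, 6 and 24 on day 6 (Thy1+, SSEA1+, DN), 8, 8 and 10 on day 9 in the same order, 26 at day 12 and 4 for the mean effect. Fitting only the groups compared gave, with limma, 0 at D0, 0, 0 and 1 on day 3 in that order, 8 and 1 on day 6 (Thy1+, SSEA1+) and 5, 0 and 44 on day 9. That fit has 2 residual degrees of freedom of its own. Leaving out 1 library gave from 3 to 51 at D0, and on day 3 from 2 to 5 in Thy1+, from 10 to 14 in SSEA1+ and from 6 to 8 in DN cells. It gave from 20 to 27 in Thy1+ and from 33 to 39 in SSEA1+ cells of day 6 and from 17 to 28 in SSEA1+ cells of day 9. A lone library left in a group is taken to vary like the other groups. All 6 overexpression libraries, chosen after seeing the data, gave 1 call for oeCTCF. The replicate numbers did not pair the samples, since correlations of same-numbered deviations ran from -0.10 to 0.13 over 231 pairs of groups. With a replicate block, 189 members were called at day 12 against D0 and 132 for the mean effect, and the block changed no single-member call. Scores give no depth, so no counting error can be set.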

Other observations

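A few members that fibroblasts hardly expressed were SSEA1+ genes. Slc10a4, a relative of the bile acid carriers, had 0 and 1 at D0, 24 and 26 in Thy1+ and 234 and 278 in SSEA1+ cells of day 3, and 7 and 4 against 326 and 291 on day 6 (log2 fold change 5.61, SE 0.30, adjusted p 2.83e-15). Slc38a5, a glutamine and serine carrier, had 0 and 1 at D0 and 11 and 9 in Thy1+ against 216 and 224 in SSEA1+ cells of day 6 (log2 fold change 4.33, SE 0.38, adjusted p 6.97e-11). In both, the SSEA1+ cells of day 6 lay above day 12 GFP+ cells, which had 95 and 84 and 58 and 60. Slc27a2, a fatty acid carrier that also activates its substrate, came later, with 33 and 46 in day 6 SSEA1+ cells and 242 and 242 in day 12 GFP+ cells. Slc22a23, an orphan of the organic ion carriers, rose early instead, from 98 and 122 at D0 to 468 and 451 in day 3 Thy1+ cells (log2 fold change 2.06, SE 0.12, adjusted p 5.5e-14), and had 201 and 238 at day 12 with control and 467 and 514 with Ctcf shRNA.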
